A study of Mus musculus with 10 samples.

Results

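The 10 genes described here encode the TSC complex (Tsc1, Tsc2 and Tbc1d7), the small GTPase that it restrains (Rheb), and the subunits of the 2 complexes of the mTOR kinase (Mtor, Mlst8, Rptor, Akt1s1, Rictor and Deptor). They were chosen by symbol from a table of 56748 mouse genes, and each symbol stood in it once. RNA was sequenced from 10 mouse liver samples. The groups were 3 tumours driven by injected Akt, Nras and Foxo1AAA, called Akt/Nras/Foxo1AAA tumours, 3 driven by injected Akt plus Nras, called Akt/Nras tumours, and 4 normal livers of wild-type FVB mice. The tumours are models of hepatocellular carcinoma made by hydrodynamic tail vein injection, a rapid injection that carries plasmid DNA into hepatocytes. Foxo1AAA is FOXO1 with its AKT phosphorylation sites changed to alanine, which AKT no longer inhibits. The labels give the genotype of every sample as WT, and do not state the promoters of the injected constructs, the age of the mice or whether each sample came from its own mouse. The p-values therefore measure the spread between these samples.

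AKT, the kinase delivered to both kinds of tumour, phosphorylates TSC2 and so relieves RHEB from its GTPase-activating protein. GTP-bound RHEB then activates mTOR complex 1 (mTORC1) at the lysosome, where amino acids bring the complex through the Rag GTPases. mTORC1 drives protein and lipid synthesis in hepatocytes, and mTOR complex 2 (mTORC2) phosphorylates AKT itself. The series concerns which AKT substrates, TSC2 among them, carry its oncogenic activity in liver. Much of this control acts on proteins, and the measurements below are of RNA.

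Expression is given in FPKM (fragments per kilobase of gene, divided by a number set for each library) as the authors deposited it, so that levels of different genes are per length. The reads behind the values, recovered from FPKM and gene length, were 15.39 to 20.75 M in the Akt/Nras/Foxo1AAA libraries, 16.16 to 21.26 M in the Akt/Nras libraries, and 13.59 to 17.53 M in those of normal liver. FPKM summed to 413812 to 444893, 349619 to 381653 and 692010 to 743203 in the same order of groups. The libraries thus do not share a common total, and the size and often the direction of a small difference depended on how they were put on a common scale. Changes are therefore given at the deposited scaling, under 3 other scalings, and as ratios of 2 genes within a library, which no scaling alters.

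The markers of hepatocytes, in which the plasmids are taken up, were strongly expressed in all groups. Summed FPKM of the 7 hepatocyte markers in the table ranged over 29391 to 41066 in Akt/Nras/Foxo1AAA tumours, over 24861 to 27547 in Akt/Nras tumours and over 66480 to 70473 in normal liver, and all 7 were called lower in each tumour group against normal liver at the deposited scaling. With equal library totals 2 of the 7 were called higher and 3 lower in Akt/Nras/Foxo1AAA tumours, and 1 higher and 3 lower in Akt/Nras tumours. Of all tested genes, 36.5% were called lower and 26.8% higher in Akt/Nras/Foxo1AAA tumours at the deposited scaling, and 37.9% and 31.1% in Akt/Nras tumours. Equal totals gave 13.5% lower and 61.0% higher in Akt/Nras/Foxo1AAA tumours, and 13.8% and 69.2% in Akt/Nras tumours. The 6 cholangiocyte markers summed to 2662 to 5386, 4115 to 5801 and 16.5 to 24.6 FPKM in the same order, the 7 macrophage markers to 303 to 594, 428 to 538 and 85.8 to 124 FPKM, and the 7 stellate cell and fibroblast markers to 93.0 to 126, 146 to 174 and 32.6 to 38.9 FPKM. Of these last 7, 5 were called higher and 2 lower in each tumour group. The 2 were Lrat, 2.09-fold lower in Akt/Nras/Foxo1AAA and 2.84-fold lower in Akt/Nras tumours, and Dcn, 1.51-fold and 1.52-fold lower. With equal totals 5 and 6 of the 7 were called higher in the same order and 0 lower. The 6 endothelial markers summed to 29.7 to 38.4, 27.6 to 37.0 and 27.8 to 35.4 FPKM, though single members moved in opposite directions. Mean FPKM, in that order, was 5.60, 6.20 and 2.11 for Pecam1, 9.83, 11.0 and 4.37 for Cdh5, and 11.8, 6.53 and 17.1 for Clec4g. Of the 5 tested, limma called Pecam1 and Cdh5 higher in each tumour group. It called Clec4g lower in Akt/Nras tumours only (adjusted p = 0.000759, against 0.107 with Foxo1AAA). Equal totals gave 4 of the 5 higher and 0 lower in each tumour group. The 5 lymphocyte markers all averaged under 1 FPKM in each group. In the tumours some of these sums rested largely on a single gene. Alb was the largest part of the hepatocyte markers, at a mean of 24238, 19328 and 37775 FPKM in the same order of groups. Spp1 was that of the cholangiocyte markers, at a mean of 3953, 5032 and 16.9 FPKM in the same order of groups. Cd14 was that of the macrophage markers, at 280, 313 and 1.62 FPKM. In normal liver Clec4f (51.3 FPKM) and Lyz2 (36.3 FPKM) were the highest macrophage markers. Other cholangiocyte markers differed between the tumour groups, Krt19 being 9.27-fold, Cldn7 4.29-fold and Epcam 3.32-fold lower in Akt/Nras/Foxo1AAA than in Akt/Nras tumours (limma, adjusted p = 0.00554, 0.0302 and 0.00851). Krt7, not tested, averaged 0.254 FPKM in Akt/Nras/Foxo1AAA tumours, 1.62 in Akt/Nras tumours and 0.238 in normal liver. Clec4f, a Kupffer cell marker, was 2.26-fold lower in Akt/Nras tumours than in normal liver (adjusted p = 0.00568, or 0.375 with equal totals) and was not called in Akt/Nras/Foxo1AAA tumours (adjusted p = 0.725). No marker was at 0 in every library of a group. In such bulk tissue, fewer cells of a type and less RNA per cell cannot be told apart, and the part of these markers in the results below was not tested.

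The promoters of the pair Tsc1 and Tsc2, whose RNAs changed by different amounts, of Mlst8, the close neighbour of Tsc2 on chromosome 17, and of Rheb are shown as the 250 bases before the gene start, 5′ to 3′ on the gene's strand, from RefSeq on GRCm38.p6. They lie at chr2:28640983-28641232 (plus strand), chr17:24632628-24632877 (minus strand), chr17:24479079-24479328 (minus strand) and chr5:24842362-24842611 (minus strand). Capitals mark an ETS motif in Tsc2 and an E-box in Rheb.
Tsc1: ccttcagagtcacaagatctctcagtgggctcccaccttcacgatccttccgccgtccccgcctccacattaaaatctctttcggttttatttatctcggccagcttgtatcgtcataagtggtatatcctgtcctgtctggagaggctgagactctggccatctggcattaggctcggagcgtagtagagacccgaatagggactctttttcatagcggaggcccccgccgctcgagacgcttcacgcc
Tsc2: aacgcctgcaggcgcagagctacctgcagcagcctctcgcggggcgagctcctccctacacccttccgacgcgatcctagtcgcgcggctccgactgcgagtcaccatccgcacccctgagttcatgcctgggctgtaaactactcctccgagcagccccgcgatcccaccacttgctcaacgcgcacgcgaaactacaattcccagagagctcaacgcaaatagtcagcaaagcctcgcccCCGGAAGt
Mlst8: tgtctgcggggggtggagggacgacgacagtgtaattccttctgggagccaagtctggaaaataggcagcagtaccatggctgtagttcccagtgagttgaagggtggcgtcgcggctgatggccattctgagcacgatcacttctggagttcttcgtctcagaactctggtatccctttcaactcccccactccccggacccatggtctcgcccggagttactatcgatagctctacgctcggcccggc
Rheb: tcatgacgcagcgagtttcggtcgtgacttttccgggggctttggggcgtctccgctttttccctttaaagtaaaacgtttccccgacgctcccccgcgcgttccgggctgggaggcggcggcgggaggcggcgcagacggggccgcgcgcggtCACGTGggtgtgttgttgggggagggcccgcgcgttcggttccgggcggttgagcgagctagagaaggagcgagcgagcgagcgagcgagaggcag

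Promoters of 9 of the 10 genes were in the RefSeq table, and that of Deptor was not, so Deptor was not searched. Searched on both strands, the FOXO motif GTAAACA occurred in 0 of the 9, against 3.17% of 32851 promoters of the same length. With 9 promoters, a count of 0 cannot be told apart from that share. The E-box CACGTG, the site bound by MYC and TFEB family factors, occurred in 2 of the 9 (Tbc1d7 and Rheb), against 6.02% of all promoters. The ETS motif CCGGAAG occurred in 3 of the 9 (Tsc2, Mtor and Akt1s1), against 6.91%. The letters do not overlap between the motifs, and a match is no proof of a bound site. GC content was 37.6% for Rptor, 54.4% for Tsc1 and for Mtor, 57.6% for Mlst8, 61.6% for Tbc1d7, 62.8% for Tsc2, 66.4% for Akt1s1, 68% for Rheb and 81.2% for Rictor, against a median of 52.4% over all promoters.

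All 10 genes were expressed, at levels that spanned an order of magnitude. In normal liver Akt1s1 (23.2 ± 1.67 FPKM, SD, n = 4) and Deptor (21.8 ± 2.09 FPKM) had the highest levels, and their libraries overlapped. Rheb followed at 9.06 ± 0.447 FPKM, then Tsc2 at 6.24 ± 0.516 and Mtor at 6.10 ± 0.693 FPKM, which overlapped, and Rptor at 4.99 ± 0.386 FPKM, which overlapped Mtor. Tsc1 stood lower at 3.28 ± 0.322 FPKM, clear of its neighbours on both sides. Tbc1d7 (2.0 ± 0.365 FPKM), Mlst8 (1.42 ± 0.222 FPKM) and Rictor (1.40 ± 0.218 FPKM) closed the order, with overlap between each and the next. In both tumour groups Akt1s1 stayed first and Rictor last, while Deptor came closer to Rheb. Deptor remained above Rheb in every Akt/Nras/Foxo1AAA library and in every normal liver, and in 1 of the 3 Akt/Nras tumours.

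**Figure D1:**
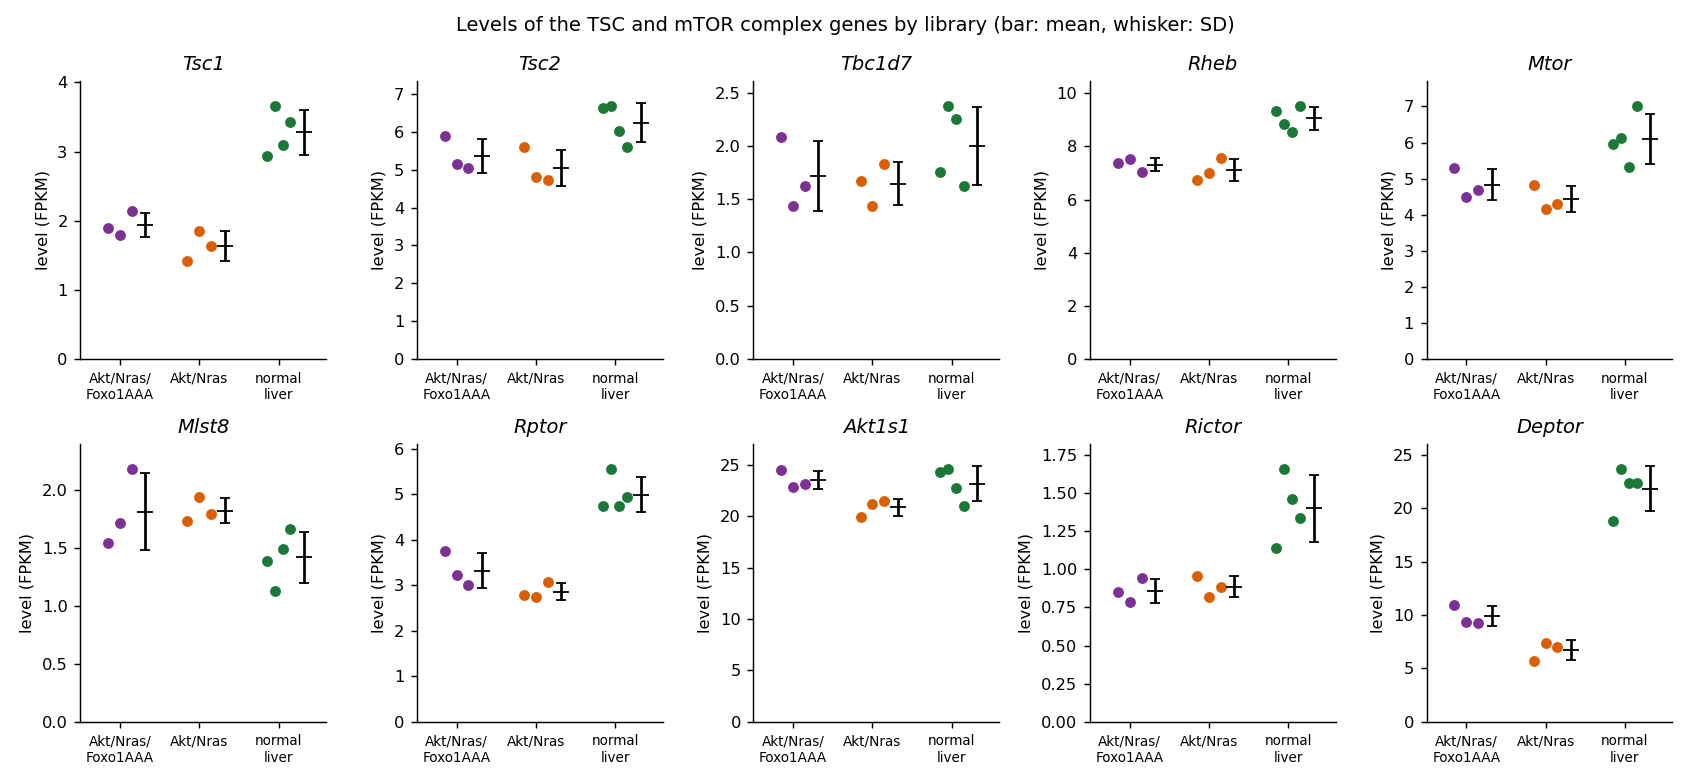
Level of each gene in FPKM (vertical axis, linear, from 0) in the 3 Akt/Nras/Foxo1AAA tumours, the 3 Akt/Nras tumours and the 4 normal livers. Points are libraries, and the bar and whisker beside them are the mean and SD. Deptor, Tsc1, Rptor, Rictor, Rheb and Mtor lie lower in every tumour than in every normal liver at the deposited scaling. For Deptor the 2 tumour groups are also apart.

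At the deposited scaling 6 of the 10 genes were called lower and 0 higher in Akt/Nras/Foxo1AAA tumours against normal liver (limma, Benjamini-Hochberg adjusted p under 0.05 over 12439 genes), where 63.3% of all tested genes were called, 36.5% lower and 26.8% higher. In Akt/Nras tumours against normal liver 7 were called lower and 0 higher, where 69.0% of all genes were called, 37.9% lower and 31.1% higher. Their median log2 change was -0.28 in Akt/Nras/Foxo1AAA tumours, against -0.09 over all genes, and -0.33 in Akt/Nras tumours, against -0.07 over all genes. The count called higher was also 0 in both at an unadjusted p under 0.05. The 2 comparisons share the normal livers. In Akt/Nras/Foxo1AAA against Akt/Nras tumours 1 gene, Deptor, was called, where 12.1% of all genes were called, 7.93% higher and 4.13% lower. That background count, 1500 genes, moved with the libraries fitted, to 550 without Akt/Nras/Foxo1AAA replicate 1, 632 without Akt/Nras/Foxo1AAA replicate 2, 901 without Akt/Nras replicate 1 and 10 with only the tumour groups in the fit. Counted by libraries alone, 6 of the 10 genes were lower in every Akt/Nras/Foxo1AAA tumour than in every normal liver, as were 37.5% of all genes, and 4 overlapped, where 65.4% of all genes did not overlap in either direction. In Akt/Nras tumours 7 were lower in every tumour, as were 37.4% of all genes, and 1, Mlst8, was higher in every tumour, as were 30.9%. Rictor reached 1 FPKM in the 4 normal livers only, so that it entered the test through the group in which it is high, whereas the other 9 genes reached it in all 10 libraries.

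Scaling moved most of these calls. With every library brought to the same FPKM total, the median change of all genes moved to 0.47 in Akt/Nras/Foxo1AAA tumours and 0.70 in Akt/Nras tumours, both against normal liver, and 6 of the 10 genes were then called higher and 1 lower in each. These counts stand beside 61.0% of all genes called higher and 13.5% lower in Akt/Nras/Foxo1AAA tumours, and 69.2% higher and 13.8% lower in Akt/Nras tumours, with that scaling. Scaled by recovered reads, 2 were called higher and 1 lower in Akt/Nras/Foxo1AAA tumours, and 4 higher and 2 lower in Akt/Nras tumours. Of all genes 47.8% were then called higher and 18.2% lower in Akt/Nras/Foxo1AAA tumours, and 58.8% higher and 18.6% lower in Akt/Nras tumours. Deptor was the gene called lower under all 4 scalings in both comparisons. Measured from the median of all genes, the order of the genes moved little with the scaling, but their distances from it did move. In Akt/Nras tumours Rictor lay at -0.27 from that median at the deposited scaling and at -0.53 with equal totals. In both tumour groups Deptor, Tsc1, Rptor, Rictor, Mtor, Rheb, Tbc1d7 and Tsc2 lay below that median and Mlst8 above it under all 4 scalings, and Akt1s1 lay above it except at the deposited scaling in Akt/Nras tumours.

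**Figure D2:**
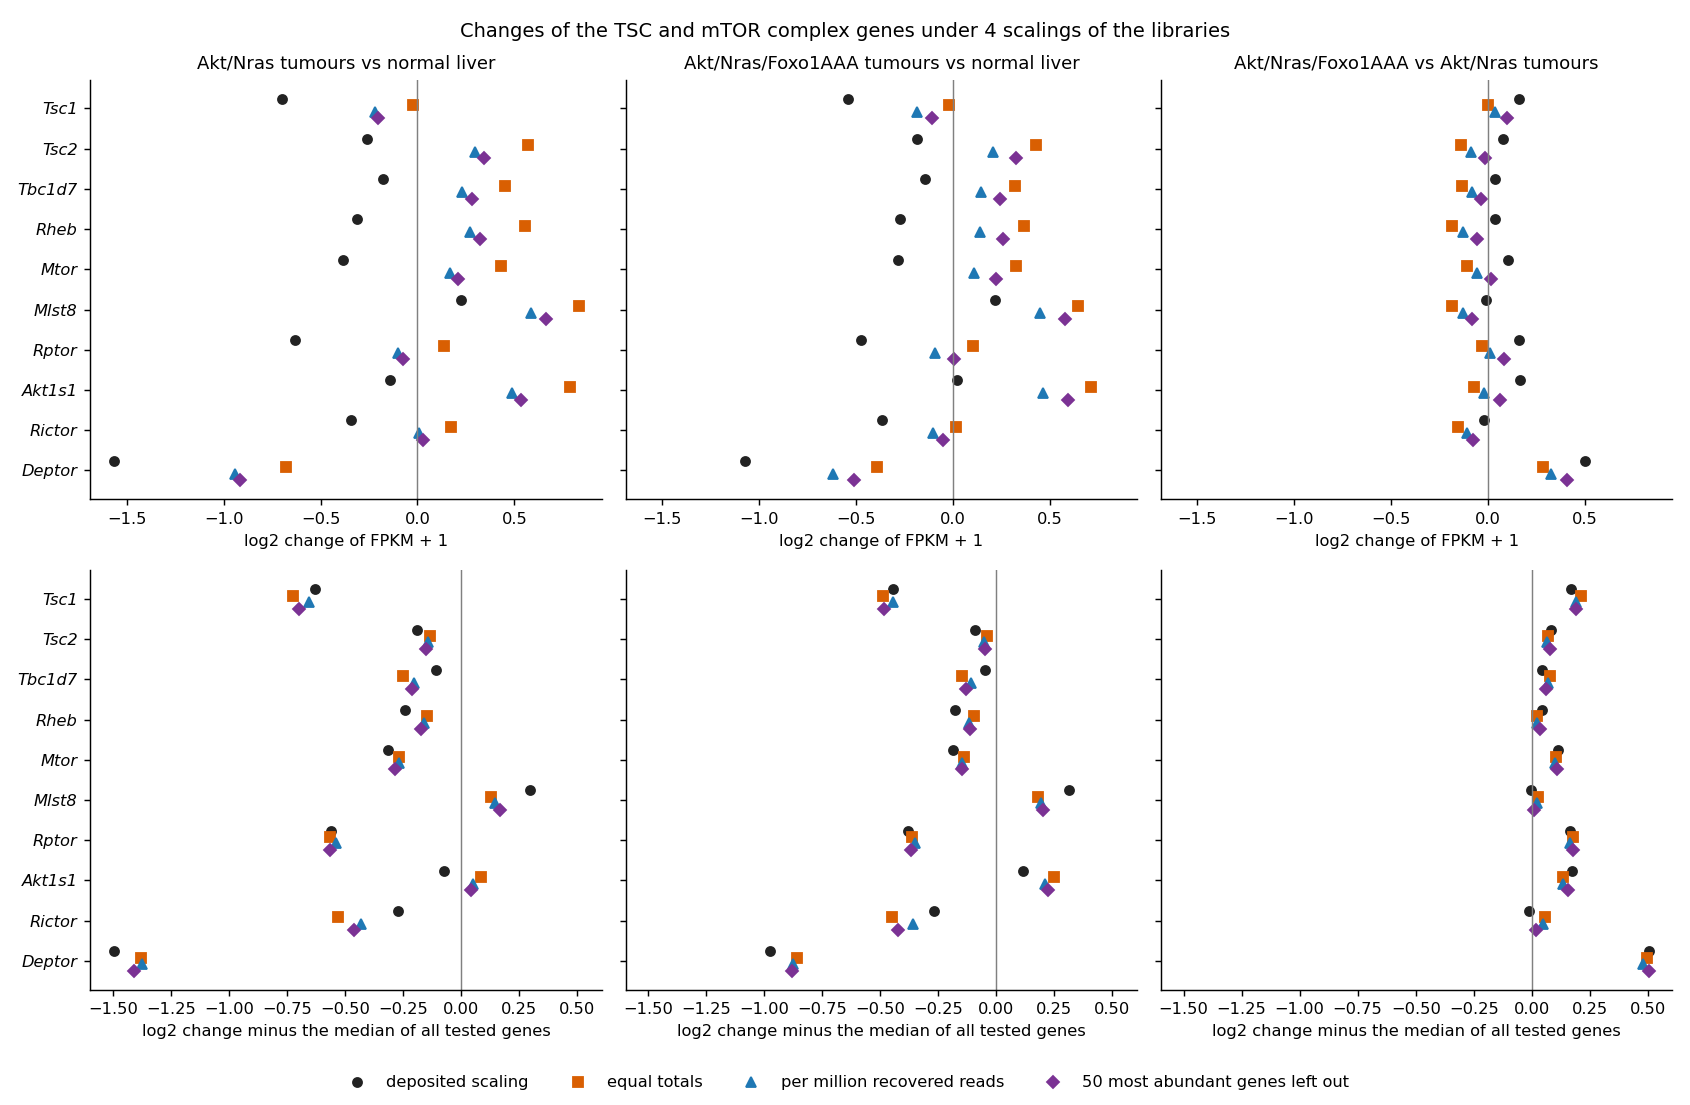
Change of each gene (log2 of FPKM + 1, horizontal axis) in the 3 comparisons under 4 scalings of the libraries, as such in the upper row and after subtracting the median of all tested genes in the lower row. In the upper row most genes cross 0 between scalings, while Deptor, Tsc1 and Mlst8 do not in any comparison. In the lower row Deptor lies farthest from 0 in each comparison, at -0.98 in Akt/Nras/Foxo1AAA and -1.50 in Akt/Nras tumours against normal liver, and at 0.51 between the tumour groups, with the deposited scaling.

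Deptor encodes the inhibitor that binds mTOR in both complexes and is itself degraded when they are active. It lies on chromosome 15 at 54975713 to 55122667 (plus strand, deposited coordinates), and its values rest on 832 to 1957 reads per library. The deposited coordinates name no build, and for the genes with a promoter shown above they do not adjoin the GRCm38.p6 promoter positions. Deptor had 11.0, 9.38 and 9.28 FPKM in Akt/Nras/Foxo1AAA tumours, 5.70, 7.42 and 7.03 FPKM in Akt/Nras tumours, and 18.8, 23.7, 22.4 and 22.4 FPKM in normal livers. No 2 of the 3 groups overlapped, with the Akt/Nras/Foxo1AAA tumours between the other groups. Deptor fell by 1.07 on the log2(FPKM + 1) scale in Akt/Nras/Foxo1AAA tumours against normal liver (SE 0.108, 2.21-fold lower, adjusted p = 1.17e-05) and by 1.57 in Akt/Nras tumours (SE 0.108, 3.25-fold lower, adjusted p = 4.64e-07). With equal library totals the log2 change was -0.39 in Akt/Nras/Foxo1AAA tumours (adjusted p = 0.00650) and -0.68 in Akt/Nras tumours (adjusted p = 0.000128). An overlapping antisense RNA gene, Gm9920, averaged at most 0.221 FPKM in any group, and whether the counting used strand is not stated.

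Between the tumour groups Deptor was 1.47-fold higher in Akt/Nras/Foxo1AAA tumours at 9.87 ± 0.941 FPKM than in the Akt/Nras ones at 6.72 ± 0.901 FPKM (SD, n = 3 each), a log2 change of 0.50 with a 95% interval of 0.24 to 0.76 (limma, adjusted p = 0.0228). The change was 0.28 with equal totals (adjusted p = 0.0785), 0.32 when scaled by recovered reads (adjusted p = 0.0533) and 0.41 when scaled by totals that omit the 50 highest genes (adjusted p = 0.0450). At the deposited scaling the call was lost without Akt/Nras/Foxo1AAA replicate 1 (adjusted p = 0.0920), Akt/Nras/Foxo1AAA replicate 2 (adjusted p = 0.0575) or Akt/Nras replicate 1 (adjusted p = 0.0620), and with only the 2 tumour groups in the fit (adjusted p = 0.0754). Of the 7 hepatocyte markers, 5 were also called higher in Akt/Nras/Foxo1AAA than in Akt/Nras tumours, or 3 with equal totals. Of the 5 tested cholangiocyte markers 3 were called lower, or 4 with equal totals, and of the 7 stellate cell and fibroblast markers 3 lower, or 4 with equal totals. Of all genes 7.93% were called higher and 4.13% lower between the tumour groups, or 5.27% and 26.0% with equal totals. The part of any of these markers in the difference in Deptor was not tested.

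Tsc1 encodes hamartin, which holds TSC2 stable in the complex. The gene lies on chromosome 2 at 28531240 to 28581179 (plus strand, deposited coordinates) and its values rest on 275 to 414 reads. Tsc1 had 1.90, 1.79 and 2.14 FPKM in Akt/Nras/Foxo1AAA tumours, 1.41, 1.85 and 1.64 FPKM in Akt/Nras tumours, and 2.94, 3.65, 3.10 and 3.42 FPKM in normal livers. Every tumour was lower than every normal liver, and the tumour groups overlapped. Tsc1, at the deposited scaling, was 1.69-fold lower in Akt/Nras/Foxo1AAA tumours (log2 change -0.54, SE 0.094, adjusted p = 0.000531) and 2.01-fold lower in Akt/Nras tumours (log2 change -0.70, SE 0.094, adjusted p = 6.62e-05). With equal totals both changes were near 0, at -0.02 in each, with adjusted p = 0.863 and 0.850 in the same order, against all-gene medians of 0.47 and 0.70. Scaled by recovered reads they were -0.19 (limma, adjusted p = 0.102) and -0.22 (adjusted p = 0.0499). The call in Akt/Nras tumours was thus kept there, just under the threshold.

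Tsc2 encodes tuberin, the GTPase-activating protein for RHEB that AKT phosphorylates. It lies on chromosome 17 at 24814790 to 24851604 (minus strand, deposited coordinates), and its values rest on 475 to 1028 reads. Tsc2 had 5.89, 5.15 and 5.05 FPKM in Akt/Nras/Foxo1AAA tumours, 5.59, 4.80 and 4.74 FPKM in Akt/Nras tumours, and 6.64, 6.67, 6.03 and 5.60 FPKM in normal livers. The Akt/Nras/Foxo1AAA tumours overlapped the normal livers, and the Akt/Nras tumours lay below them with almost no gap. The log2 change was -0.19 in Akt/Nras/Foxo1AAA tumours (SE 0.089, adjusted p = 0.0932) and -0.26 in Akt/Nras tumours (SE 0.089, 1.24-fold lower, adjusted p = 0.0238). The sign turned with the scaling, and with equal totals the changes were 0.43 (adjusted p = 0.00180) and 0.57 (adjusted p = 0.000184) in the same order. These lay below the all-gene medians of 0.47 and 0.70. The Akt/Nras call was also lost without Akt/Nras replicate 2 (adjusted p = 0.0768), Akt/Nras replicate 3 (adjusted p = 0.0867), normal liver replicate 1 (adjusted p = 0.0596) or normal liver replicate 2 (adjusted p = 0.0578). Tsc2 overlaps Pkd1 on the opposite strand by 693 bases.

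Tbc1d7, the third subunit of the TSC complex, lies on chromosome 13 at 43305216 to 43324977 (minus strand, deposited coordinates) and was thinly covered, with 58 to 158 reads per library. It ranged from 1.44 to 2.09 FPKM in Akt/Nras/Foxo1AAA tumours, from 1.43 to 1.83 FPKM in Akt/Nras tumours and from 1.63 to 2.37 FPKM in normal livers. All 3 groups overlapped, and Tbc1d7 was not called at the deposited scaling. Its log2 change against normal liver was -0.14 in Akt/Nras/Foxo1AAA tumours (95% interval -0.41 to 0.13, adjusted p = 0.330) and -0.18 in Akt/Nras tumours (95% interval -0.45 to 0.10, adjusted p = 0.222). With equal totals it was 0.32 (adjusted p = 0.0270) and 0.45 (adjusted p = 0.00363) in the same order, below the all-gene medians of 0.47 and 0.70.

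Rheb, the GTPase that activates mTORC1, lies on chromosome 5 at 25007821 to 25047622 (minus strand, deposited coordinates), with 612 to 1246 reads per library. Rheb had 7.37, 7.54 and 7.04 FPKM in Akt/Nras/Foxo1AAA tumours, 6.74, 7.01 and 7.57 FPKM in Akt/Nras tumours, and 9.34, 8.84, 8.54 and 9.51 FPKM in normal livers. Every tumour was lower than every normal liver, and the tumour groups overlapped. Rheb was 1.24-fold lower in Akt/Nras/Foxo1AAA tumours (log2 change -0.27, SE 0.071, adjusted p = 0.00618) and 1.27-fold lower in Akt/Nras tumours (log2 change -0.31, SE 0.071, adjusted p = 0.00253) at the deposited scaling. It was higher with equal totals, by 0.37 (adjusted p = 0.00135) and 0.56 (adjusted p = 4.97e-05) on the log2 scale. Both lay below the all-gene medians of 0.47 and 0.70.

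Mtor encodes the kinase of both complexes and lies on chromosome 4 at 148533068 to 148642140 (plus strand, deposited coordinates), with 515 to 974 reads per library. Mtor had 5.31, 4.49 and 4.70 FPKM in Akt/Nras/Foxo1AAA tumours, 4.84, 4.16 and 4.29 FPKM in Akt/Nras tumours, and 5.96, 6.12, 5.32 and 7.0 FPKM in normal livers. The groups of tumours overlapped each other but not the normal livers, though the highest Akt/Nras/Foxo1AAA tumour almost met the lowest normal liver. The log2 change was -0.28 in Akt/Nras/Foxo1AAA tumours (SE 0.096, 1.26-fold lower, adjusted p = 0.0245) and -0.38 in Akt/Nras tumours (SE 0.096, 1.38-fold lower, adjusted p = 0.00433). With equal totals it was 0.33 (adjusted p = 0.0135) and 0.43 (adjusted p = 0.00217) in the same order, below the all-gene medians of 0.47 and 0.70. The Akt/Nras/Foxo1AAA call was lost without Akt/Nras/Foxo1AAA replicate 2 (adjusted p = 0.0947), Akt/Nras/Foxo1AAA replicate 3 (adjusted p = 0.0673) or normal liver replicate 4 (adjusted p = 0.0667).

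Mlst8, the beta-propeller subunit that sits on the kinase domain in both complexes, lies on chromosome 17 at 24692525 to 24698052 (minus strand, deposited coordinates), 117 kb from Tsc2. Like Tbc1d7 it was thinly covered, with 45 to 169 reads per library. Mlst8 had 1.54, 1.72 and 2.18 FPKM in Akt/Nras/Foxo1AAA tumours, 1.73, 1.94 and 1.79 FPKM in Akt/Nras tumours, and 1.39, 1.13, 1.48 and 1.66 FPKM in normal livers. Every Akt/Nras tumour was above every normal liver, and the Akt/Nras/Foxo1AAA tumours overlapped them. At the deposited scaling neither change was called, at 0.22 in Akt/Nras/Foxo1AAA tumours (SE 0.108, 95% interval -0.02 to 0.46, adjusted p = 0.103) and 0.23 in Akt/Nras tumours (SE 0.108, 95% interval -0.01 to 0.47, adjusted p = 0.0850) on the log2 scale. Under each of the 3 other scalings Mlst8 was called higher in both, by 0.65 (adjusted p = 0.000716) and 0.83 (adjusted p = 7.97e-05) with equal totals. The all-gene medians were then 0.47 and 0.70.

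Rptor encodes RAPTOR, the scaffold through which mTORC1 holds its substrates. It lies on chromosome 11 at 119493731 to 119790402 (plus strand, deposited coordinates), with 576 to 915 reads per library. Rptor had 3.74, 3.21 and 2.99 FPKM in Akt/Nras/Foxo1AAA tumours, 2.79, 2.73 and 3.06 FPKM in Akt/Nras tumours, and 4.74, 5.55, 4.74 and 4.93 FPKM in normal livers. Every tumour was well below every normal liver, and the tumour groups overlapped. Rptor, at the deposited scaling, was 1.5-fold lower in Akt/Nras/Foxo1AAA tumours (log2 change -0.47, SE 0.087, adjusted p = 0.000718) and 1.74-fold lower in Akt/Nras tumours (log2 change -0.63, SE 0.087, adjusted p = 7.45e-05). With equal totals it was not called, at 0.10 (adjusted p = 0.261) and 0.14 (adjusted p = 0.138), which lie 0.36 and 0.56 below the all-gene medians.

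Akt1s1 encodes PRAS40, the mTORC1 inhibitor that AKT phosphorylates, and lies on chromosome 7 at 44498415 to 44504845 (plus strand, deposited coordinates), with 568 to 1405 reads per library. Akt1s1 had 24.5, 22.9 and 23.2 FPKM in Akt/Nras/Foxo1AAA tumours, 19.95, 21.2 and 21.5 FPKM in Akt/Nras tumours, and 24.4, 24.6, 22.8 and 21.0 FPKM in normal livers. Both tumour groups overlapped normal liver, while every Akt/Nras/Foxo1AAA tumour was above every Akt/Nras tumour. None of the 3 changes was called at the deposited scaling, at 0.02 in Akt/Nras/Foxo1AAA tumours and -0.14 in Akt/Nras tumours against normal liver (limma, adjusted p = 0.825 and 0.119) and 0.16 between the tumour groups (95% interval -0.02 to 0.34, adjusted p = 0.214). With equal totals Akt1s1 was called higher against normal liver, by 0.71 in Akt/Nras/Foxo1AAA tumours and 0.79 in Akt/Nras tumours on the log2 scale. The all-gene medians were then 0.47 and 0.70.

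Rictor encodes the defining scaffold of mTORC2 and lies on chromosome 15 at 6737860 to 6829882 (plus strand, deposited coordinates), with 200 to 319 reads per library. Rictor had 0.853, 0.787 and 0.943 FPKM in Akt/Nras/Foxo1AAA tumours, 0.955, 0.821 and 0.884 FPKM in Akt/Nras tumours, and 1.14, 1.66, 1.46 and 1.34 FPKM in normal livers. Every tumour was lower than every normal liver, and the tumour groups overlapped. Rictor, at the deposited scaling, was 1.63-fold lower in Akt/Nras/Foxo1AAA tumours (log2 change -0.36, SE 0.099, adjusted p = 0.00804) and 1.58-fold lower in Akt/Nras tumours (log2 change -0.34, SE 0.099, adjusted p = 0.00985). With equal totals it was not called, at 0.02 (adjusted p = 0.895) and 0.17 (adjusted p = 0.134).

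Between the tumour groups, the 9 genes other than Deptor were not called at the deposited scaling, with log2 changes from -0.02 for Rictor to 0.16 for Akt1s1 and adjusted p-values from 0.214 to 0.967. The 95% interval of the log2 change was -0.14 to 0.29 for Tsc2, -0.06 to 0.38 for Tsc1, -0.13 to 0.20 for Rheb, -0.12 to 0.33 for Mtor, -0.05 to 0.36 for Rptor and -0.25 to 0.21 for Rictor. Of the 10 genes, 2 were higher in every Akt/Nras/Foxo1AAA tumour than in every Akt/Nras tumour, Deptor and Akt1s1, where 16.4% of all genes were, and 8 overlapped, where 31.9% of all genes did not overlap in either direction.

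Ratios of 2 genes within each library compared partners independently of the scaling. The 4 ratios tested were chosen with earlier results of these data known, so that their p-values are not independent evidence. The ratio of Tsc1 to Tsc2 was 0.364 ± 0.0523 in Akt/Nras/Foxo1AAA tumours, 0.328 ± 0.0681 in Akt/Nras tumours (SD, n = 3 each) and 0.529 ± 0.0702 in normal liver (SD, n = 4). All 6 tumours were below all 4 normal livers, with a mean log2 difference of -0.62 (two-sided exact permutation test, 6 against 4, p = 0.00952, the smallest possible, and 0.0190 adjusted over the 4 ratios tested). Tsc1 RNA was thus lower relative to Tsc2 RNA in every tumour. The ratio of Deptor, the inhibitor, to Mtor, the kinase, was 2.04 ± 0.0599 in Akt/Nras/Foxo1AAA tumours, 1.53 ± 0.316 in Akt/Nras tumours and 3.61 ± 0.515 in normal liver. Again all 6 tumours were below all 4 normal livers, by -1.03 on the log2 scale (exact permutation p = 0.00952, 0.0190 adjusted). The 3 Akt/Nras/Foxo1AAA tumours had 1.98 to 2.09 and the 3 Akt/Nras tumours 1.18 to 1.78, without overlap, and 3 against 3 libraries cannot reach an exact p below 0.1.

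The ratio of Rheb to Tsc2, the GTPase to its inhibitor, was 1.37 ± 0.107 in Akt/Nras/Foxo1AAA tumours, 1.42 ± 0.199 in Akt/Nras tumours and 1.46 ± 0.163 in normal liver, with overlap of all groups and a log2 difference of -0.07 (exact permutation p = 0.524, 0.698 adjusted). The ratio of Rictor to Rptor, the scaffolds of mTORC2 and mTORC1, was 0.262 ± 0.0462, 0.311 ± 0.0282 and 0.280 ± 0.0304 in the same order, a log2 difference of 0.03 (exact permutation p = 0.838, 0.838 adjusted). The ratio of Mlst8 to Mtor, chosen after its values were seen and given with no test, was 0.290, 0.382 and 0.464 in Akt/Nras/Foxo1AAA tumours, 0.357, 0.467 and 0.417 in Akt/Nras tumours, and 0.233, 0.185, 0.279 and 0.237 in normal livers. Every tumour was above every normal liver.

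**Figure D3:**
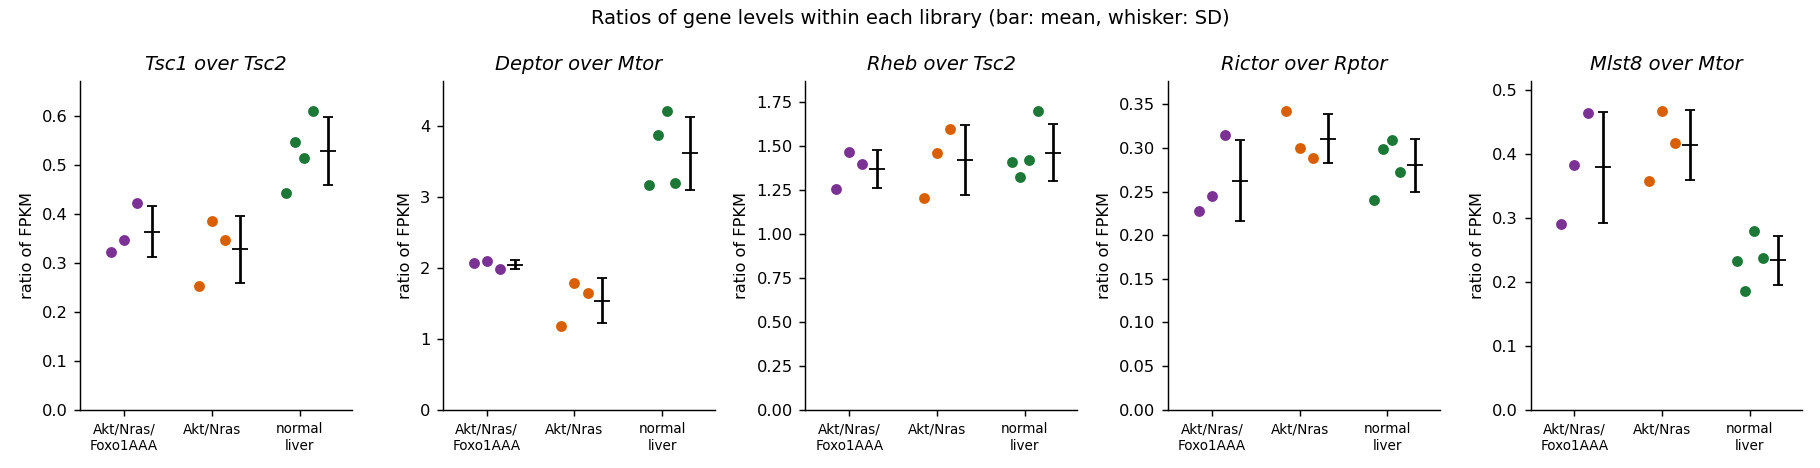
Ratio of FPKM of 2 genes within each library (vertical axes, linear, from 0) in the 3 Akt/Nras/Foxo1AAA tumours, the 3 Akt/Nras tumours and the 4 normal livers, with mean and SD beside the points. The 6 tumours lie below the 4 normal livers for Tsc1 over Tsc2 and Deptor over Mtor and above them for Mlst8 over Mtor. The groups overlap for Rheb over Tsc2 and Rictor over Rptor.

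The wider pathway was read from lists of named genes. Counts over these lists with equal totals stand against the shares of all genes given above for that scaling, 61.0% higher in Akt/Nras/Foxo1AAA and 69.2% higher in Akt/Nras tumours. In the lists of the amino acid arm, Rragd, one of the Rag GTPases, had the largest change at the deposited scaling. Rragd had 8.37 ± 0.334 FPKM in Akt/Nras/Foxo1AAA tumours and 13.97 ± 4.62 FPKM in Akt/Nras tumours (SD, n = 3 each), against 0.309 ± 0.049 FPKM in normal liver (n = 4), 27.1-fold and 45.2-fold higher (limma, adjusted p = 3.33e-07 and 5.23e-08). It passed the filter on low values through the tumours only. In the list of Rag GTPases and Ragulator 2 of 11 tested genes were called higher and 6 lower in each tumour group, and with equal totals 6 were called higher in each, and 3 lower in Akt/Nras/Foxo1AAA and 2 lower in Akt/Nras tumours. The other gene called higher at the deposited scaling was Rraga, at 1.15-fold in Akt/Nras/Foxo1AAA and 1.24-fold in Akt/Nras tumours. Fnip2, a partner of folliculin, was 2.68-fold lower in Akt/Nras/Foxo1AAA and 2.94-fold lower in Akt/Nras tumours. Fnip1 was 2.58-fold lower in Akt/Nras/Foxo1AAA and 2.08-fold lower in Akt/Nras tumours. The Ragulator subunit gene Lamtor4 was 2.06-fold lower in Akt/Nras/Foxo1AAA and 2.47-fold lower in Akt/Nras tumours. With equal totals these 3 genes were still called lower in each group, except Fnip1 in Akt/Nras tumours (log2 change -0.07, adjusted p = 0.621).

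Among GATOR2 and nutrient sensor genes, which relay leucine and arginine to the Rag GTPases, 5 of 11 were called higher and 4 lower in Akt/Nras/Foxo1AAA tumours, and 5 higher and 3 lower in Akt/Nras tumours. With equal totals 8 and 10 were called higher in the same order and 0 lower. Castor1, the arginine sensor, was 4.35-fold higher in Akt/Nras/Foxo1AAA tumours (4.88 ± 1.68 against 1.12 ± 0.225 FPKM in normal liver) and 3.17-fold higher in Akt/Nras tumours (3.55 ± 0.747 FPKM). Sesn2, a stress-induced leucine sensor, was 2.51-fold and 2.25-fold higher in the same order. Sesn1, at the deposited scaling, was 1.52-fold and 1.88-fold lower and Mios 1.47-fold and 1.43-fold lower, and neither was called lower with equal totals.

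GATOR1, the GTPase-activating complex for the Rag GTPases, and its anchor KICSTOR had 7 tested genes, of which 3 were called lower and 0 higher in each tumour group at the deposited scaling. With equal totals 4 were called higher and 0 lower in each. The 3 genes were Nprl2, 1.73-fold lower in Akt/Nras/Foxo1AAA and 1.97-fold lower in Akt/Nras tumours, Kptn, 1.55-fold and 1.80-fold lower, and Depdc5, named after its values were seen, 1.61-fold and 1.75-fold lower. Of the 5 tested genes for other mTORC2 subunits and assembly factors, 1 was called higher and 3 lower in Akt/Nras/Foxo1AAA tumours, and 2 higher and 3 lower in Akt/Nras tumours. With equal totals 3 and 4 were called higher in the same order and 0 lower. Tti1, of a co-chaperone complex that mTOR needs for its assembly, was 1.28-fold and 1.21-fold higher in the same order, and its partner Telo2 1.49-fold higher in Akt/Nras tumours. The mTORC2 subunit genes Prr5, at 1.5-fold and 2.09-fold, and Mapkap1, at 1.25-fold and 1.32-fold, were lower at the deposited scaling, and so was Tti2, named after its values were seen, at 1.40-fold and 1.37-fold. With equal totals Mapkap1 was called higher in both groups, Tti2 in Akt/Nras tumours (log2 change 0.29, adjusted p = 0.0231) but not in Akt/Nras/Foxo1AAA tumours (0.12, adjusted p = 0.294), and Prr5 in neither. Prr5 was 1.39-fold higher in Akt/Nras/Foxo1AAA than in Akt/Nras tumours (limma, adjusted p = 0.0361, or 0.167 with equal totals).

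Of 14 tested genes whose proteins act on the TSC complex, 8 were called higher and 4 lower in Akt/Nras/Foxo1AAA tumours, and 8 higher and 5 lower in Akt/Nras tumours. With equal totals 11 were called higher in each, and 1 lower in Akt/Nras/Foxo1AAA and 0 lower in Akt/Nras tumours. Akt1 stood at 880 ± 280 FPKM in Akt/Nras/Foxo1AAA tumours and 880 ± 139 FPKM in Akt/Nras tumours, against 21.1 ± 0.442 FPKM in normal liver, 41.6-fold higher in each, and RNA of a delivered Akt and of the mouse gene cannot be told apart here. Ddit4 encodes REDD1, which frees TSC2 to act when a cell is short of oxygen or energy. It had 67.4 ± 23.0 FPKM in Akt/Nras/Foxo1AAA tumours and 89.3 ± 23.2 FPKM in Akt/Nras tumours, against 3.56 ± 0.905 FPKM in normal liver, 18.9-fold and 25.05-fold higher. Prkaa2, a catalytic subunit of AMPK, which activates the TSC complex, was 1.93-fold lower in Akt/Nras/Foxo1AAA tumours and 2.08-fold lower in Akt/Nras tumours at the deposited scaling. Prkaa1, the other catalytic subunit, named after its values were seen, was 1.54-fold higher in Akt/Nras/Foxo1AAA tumours and 2.03-fold higher in Akt/Nras tumours (limma, adjusted p = 0.00143 and 2.71e-05), and was also called higher in both with equal totals. Akt2 was 1.66-fold lower in Akt/Nras/Foxo1AAA and 1.88-fold lower in Akt/Nras tumours, and Stk11, the kinase upstream of AMPK, 1.43-fold and 1.91-fold lower in the same order. With equal totals Prkaa2 was called lower in Akt/Nras/Foxo1AAA tumours only (adjusted p = 0.0463, and 0.410 in Akt/Nras tumours), and Akt2 and Stk11 were called in neither group.

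Of 18 tested genes for substrates of the 2 complexes and their targets, 4 were called higher and 9 lower in Akt/Nras/Foxo1AAA tumours, and 6 higher and 10 lower in Akt/Nras tumours, or 11 higher and 3 lower, and 12 higher and 4 lower, with equal totals. Grb10, an mTORC1-stabilised adaptor that dampens insulin signalling, was 3.48-fold and 8.43-fold higher in Akt/Nras/Foxo1AAA and Akt/Nras tumours. It lay at 0.366 to 0.678 FPKM in normal livers and passed the filter on low values through the tumours only. Ndrg1, a target of SGK kinases, was 7.53-fold higher in Akt/Nras tumours, and its 1.79-fold difference in Akt/Nras/Foxo1AAA tumours was not called (adjusted p = 0.114, or 0.00855 with equal totals). Prkca was 2.31-fold higher in Akt/Nras/Foxo1AAA and 2.44-fold higher in Akt/Nras tumours. Eif4ebp3, a translational repressor of the 4E-BP family, was 4.70-fold and 14.7-fold lower in Akt/Nras/Foxo1AAA and Akt/Nras tumours, and passed the filter through the normal livers. Lpin1 was 4.14-fold and 4.98-fold lower and Sgk2 3.08-fold and 11.0-fold lower in the same order. The normal livers were widely spread for Lpin1, at 26.6 ± 16.5 FPKM with a range of 15.7 to 50.8, so its fold is uncertain. The changes called for these 6 genes at the deposited scaling held their direction and call with equal totals.

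Between the tumour groups limma called 3 of 14 inputs to the TSC complex, 5 of 18 substrates and 1 of 5 mTORC2 genes, where 12.1% of all genes were called. It called 0 of 11 Rag GTPase and Ragulator genes, 0 of 11 GATOR2 and nutrient sensor genes and 0 of 7 GATOR1 and KICSTOR genes, with 3, 2 and 0 at an unadjusted p under 0.05 in that order. With equal totals, where 5.27% of all genes were called higher and 26.0% lower, 5 of the inputs were called lower and 0 higher, 6 of the substrates lower and 1 higher, 5 of the Rag list and 3 of the GATOR2 list lower, and 0 of the mTORC2 and GATOR1 lists, with 1 of each at an unadjusted p under 0.05. Sgk2 was 3.58-fold higher in Akt/Nras/Foxo1AAA than in Akt/Nras tumours (4.50 ± 1.68 and 1.26 ± 0.153 FPKM, adjusted p = 0.00517). Ndrg1 was 4.20-fold lower (3.37 ± 0.624 and 14.2 ± 7.77 FPKM, adjusted p = 0.0149) and Grb10 2.42-fold lower (1.59 ± 0.611 and 3.84 ± 1.02 FPKM, adjusted p = 0.0151). Ddit4l, a relative of Ddit4 that reached 1 FPKM in the tumours only, was 1.95-fold lower (9.22 ± 3.20 and 18.0 ± 5.25 FPKM, adjusted p = 0.0368), and Rps6ka3, which encodes an RSK kinase downstream of RAS and ERK, 1.54-fold lower (2.81 ± 0.149 and 4.33 ± 0.566 FPKM, adjusted p = 0.0141). These 5 remained called in limma with equal totals, whereas Stk11 (1.33-fold higher, adjusted p = 0.0321) and Eif4ebp2 (1.31-fold higher, adjusted p = 0.0281) did not, with adjusted p = 0.230 and 0.329. Maf1, a repressor of RNA polymerase III named after its values were seen, was 1.35-fold lower (adjusted p = 0.0282).

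**Figure D4:**
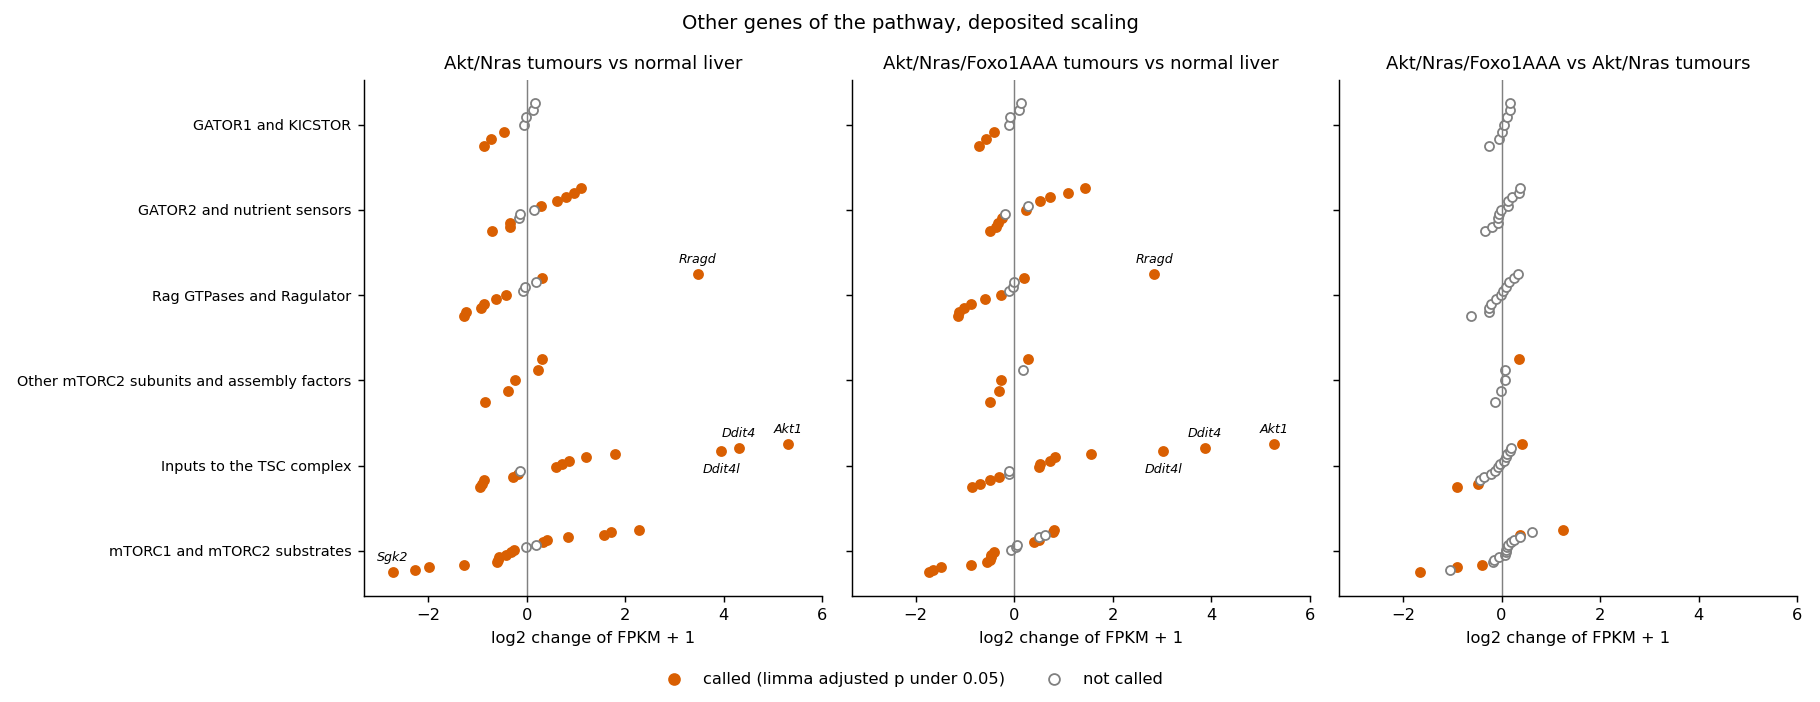
Change of each tested gene of 6 pathway lists (log2 of FPKM + 1, horizontal axis, deposited scaling) in the 3 comparisons. Filled points are genes called by limma and open points are not called, and genes beyond 2.5 in size are named. Rragd, Ddit4, Ddit4l and Akt1 lie far to the right against normal liver in both tumour groups, and the changes between the tumour groups are smaller.

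As a description of which genes varied alongside, the 5 genes whose log2(FPKM + 1) followed Tsc2 most closely over the 10 libraries were Borcs5, Atp7b, Klb, Trim41 and Lzts3, with Pearson r from 0.957 to 0.946. For Mtor they were Gm11955, Pim1, Ccdc57, Ecpas and Gm45338, with r from 0.965 to 0.949. An r of at least 0.9 was reached by 28 genes for Tsc2 and 209 for Mtor. The libraries share the group means and the deposited scaling, on both of which such an r depends.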

How the data were processed

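RNA of 10 mouse liver samples was sequenced, and the authors deposited 1 table of FPKM with 56748 genes and a column per library, per the file headers. The library step is described as polyA capture or rRNA removal, without saying which, per the labels' protocols. The submitters' processing notes name FastQC 0.11.7 and GRCm38. The aligner, the counter, its strand setting and the build of the table's coordinates were not given in the sources used here. FPKM multiplied by the deposited gene length gave whole reads, within 0.02, for 100% of the values, and the number each library was divided by was 0.875 to 0.928 times its reads in Akt/Nras/Foxo1AAA tumours, 1.00 to 1.06 times in Akt/Nras tumours and 0.629 to 0.668 times in normal liver. Reads of a gene limit its precision.

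Groups came from the sample titles. FPKM are not counts, so log2(FPKM + 1) of the 12439 genes with at least 1 FPKM in at least 3 of 10 libraries entered limma 3.58.1 in R 4.3.3 (group means, eBayes with a variance trend, two-sided), without rescaling, for 3 comparisons, and p-values were Benjamini-Hochberg adjusted over all tested genes. Log2 changes on this scale understate those of low genes, and folds are ratios of mean FPKM. Ratios of 2 genes were tested by exact permutation (scipy 1.17.1). Alternatives were 3 other scalings, a pseudocount of 0.1, other filters, other samples or weights in the fit, a replicate block and leaving out each library. The fit was tested on simulated data. The 10 genes, the ratios and the lists of pathway and marker genes were chosen with earlier results of these data known. Named from each pathway list, per comparison, were up to 2 called genes with the largest increase and 2 with the largest decrease, and for Tsc2 and Mtor the 5 genes of highest correlation. The symbols BC048403, Gatsl2, Gatsl3 and Tf were not matched in the table and are not used here. Prr5l, Rhebl1, Rragb and Slc38a9 did not pass the filter.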

Additional observations from a re-analysis of the deposited data

How the results depend on the processing

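The scaling of the libraries decided most calls. Against normal liver, the number of the 10 genes called higher in Akt/Nras/Foxo1AAA tumours was 6 with equal totals, 2 when scaled by recovered reads and 4 when scaled by totals that omit the 50 highest genes, against 0 at the deposited scaling, and 1 was called lower under each of the 3, against 6. In Akt/Nras tumours 6, 4 and 5 were called higher in the same order, against 0, and 1, 2 and 1 lower, against 7. Of all genes 61.0%, 47.8% and 55.0% were called higher in Akt/Nras/Foxo1AAA and 69.2%, 58.8% and 60.2% in Akt/Nras tumours in that order of scalings, against 26.8% and 31.1% at the deposited scaling. A minimum of 5 FPKM left 3 and 4 of the 5 tested genes called lower, since Tsc1, Rptor, Rictor, Tbc1d7 and Mlst8 were then not tested. Of the 7112 genes tested with that minimum, 3244 were called lower in Akt/Nras/Foxo1AAA and 3403 in Akt/Nras tumours. Mtor passed it through the normal livers, the lowest at 5.32 FPKM. Among the tumours only Akt/Nras/Foxo1AAA replicate 1 reached it for Mtor, at 5.31 FPKM. The log2 changes that turned positive in Akt/Nras/Foxo1AAA tumours, under these 3 scalings in that order, were 0.43, 0.21 and 0.32 for Tsc2, 0.32, 0.15 and 0.24 for Tbc1d7, 0.37, 0.14 and 0.26 for Rheb and 0.33, 0.11 and 0.22 for Mtor. Rptor turned to 0.10 with equal totals and 0.0070 without the 50 genes, and Rictor to 0.015 with equal totals. In Akt/Nras tumours they were 0.57, 0.29 and 0.34 for Tsc2, 0.45, 0.23 and 0.28 for Tbc1d7, 0.56, 0.27 and 0.32 for Rheb, 0.43, 0.17 and 0.21 for Mtor, 0.79, 0.49 and 0.54 for Akt1s1 and 0.17, 0.0057 and 0.029 for Rictor, and 0.14 for Rptor with equal totals. Scaling multiplies all genes of a library by the same factor, which on log2(FPKM + 1) moves genes of low FPKM less. The medians of all genes moved with it. In Akt/Nras/Foxo1AAA tumours they were -0.09 at the deposited scaling against 0.47, 0.26 and 0.37. In Akt/Nras tumours they were -0.07 against 0.70, 0.44 and 0.49.

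Between the tumour groups the uncalled changes that turned negative were, in the same order of scalings, -0.14, -0.087 and -0.017 for Tsc2, -0.13, -0.085 and -0.036 for Tbc1d7, -0.19, -0.13 and -0.060 for Rheb, -0.11 and -0.056 for Mtor and -0.076 and -0.021 for Akt1s1 under the first 2, and -0.032 for Rptor under the first. Tbc1d7 turned to -0.12 with array weights. Of all genes, 1500 were called there at the deposited scaling, 3890 with equal totals, 3668 with array weights, 468 under the replicate block and 10 with only the 2 groups compared. The number of the 10 genes called higher, 1 at the deposited scaling, was 0 with equal totals, when scaled by recovered reads, with only the 2 groups compared and under the replicate block.

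Leaving out 1 library at a time gave 5 to 6 genes called lower in Akt/Nras/Foxo1AAA and 6 to 7 in Akt/Nras tumours, both against normal liver, and 0 to 1 called higher between the tumour groups. The log2 ratio differences ranged from -0.70 to -0.53 for Tsc1 over Tsc2, -1.09 to -0.91 for Deptor over Mtor, -0.11 to 0.0074 for Rheb over Tsc2 and -0.045 to 0.089 for Rictor over Rptor. Uncalled log2 changes that crossed 0 were those of Akt1s1 in Akt/Nras/Foxo1AAA tumours against normal livers (-0.024 to 0.049) and, between the tumour groups, of Mlst8 (-0.10 to 0.060), Rictor (-0.052 to 0.0085) and Tbc1d7 (-0.061 to 0.11).

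The labels do not say whether replicate numbers pair the samples. Over 9 same-numbered pairs the correlation of deviations was -0.170 to 0.112, and 1 was over 0.1. A pair of different numbers, Akt/Nras/Foxo1AAA 3 and Akt/Nras 1, reached 0.196. Deviations from means of 3 or 4 libraries are too few to decide the question. With the replicate number as a block, Mtor in Akt/Nras/Foxo1AAA tumours against normal liver had an adjusted p of 0.0704 and Deptor between the tumour groups one of 0.0716 in limma, and 2 uncalled values turned, Akt1s1 in the first of these comparisons to -0.024 and Rheb over Tsc2 to 0.0074. A pseudocount of 0.1 and no filter on low values changed no call of the 10 genes, and array weights added Tsc2 as lower in Akt/Nras/Foxo1AAA tumours (log2 change -0.20, adjusted p = 0.0214). Few reads limit Mlst8 and Tbc1d7, and 3 or 4 libraries a group limit every comparison.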
